A study of Homo sapiens with 8 samples.

Results

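Major histocompatibility complex (MHC) class I molecules display peptides from inside a cell to cytotoxic T cells. The 9 genes described here, HLA-B, HLA-C, HLA-E, HLA-F, B2M, TAP1, TAP2, TAPBP and NLRC5, were picked by name for their part in this pathway, and all 9 were found by Ensembl identifier among the 60668 genes of the deposited tables. They were measured by RNA-Seq in D283-OMO cells, made from the medulloblastoma line D283 MED by lentiviral insertion of a doxycycline (DOX)-inducible, Flag-tagged OMOMYC transgene. OMOMYC is a mini-protein derived from MYC that acts as its dominant negative. The 4 libraries of the untreated group came from D283-OMO cells without DOX, labelled as having no MYC inhibitor, and the 4 libraries of the DOX group from D283-OMO cells given DOX for 72 h, labelled as MYC-inhibited by OMOMYC. Both groups thus carry the transgene, and no library of DOX-treated cells without it was analysed here, so effects of DOX and of OMOMYC cannot be told apart. D283-OMO is a single transduced line, and the replicates are independent cultures of it.

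A class I molecule consists of a polymorphic heavy chain, such as HLA-B or HLA-C, bound to the invariant light chain beta-2-microglobulin (B2M). Peptides cut by the proteasome enter the endoplasmic reticulum through the TAP1-TAP2 transporter, and tapasin (TAPBP) bridges the transporter and the waiting heavy chain. NLRC5 is the transactivator of these genes, acting with RFX, CREB/ATF and NF-Y proteins at their promoters. Cells of neural origin are known for low class I levels, which interferons can raise.

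Total counts ran from 46592947 to 54020506 in the untreated libraries and from 38390696 to 49249167 in the DOX libraries. Pearson correlations of log2 values were 0.992 to 0.998 within untreated, 0.996 to 0.998 within DOX and 0.893 to 0.909 between the groups. Untreated replicate 3 stood apart from the rest of its group, with a chi-square per degree of freedom of 27.9 to 41.1 against the other 3 and 3.49 to 6.87 among those. Without it, the 7 tested members were again higher with DOX. Of 10 leukocyte markers, 1 was tested and did not pass, and the summed level of the 10, in counts scaled to library size by the trimmed mean of M-values (TMM) and written as CPM, was 2.50 to 2.88 CPM in untreated and 2.60 to 3.39 CPM in DOX libraries.

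The promoters of 7 of the 9 members were found in a RefSeq table of the GRCh38.p14 assembly, which runs from 250 bases before to 50 bases after each gene's start. 6 of them are shown, which carry motifs through which interferon and NLRC5 pathways are known to act. Of these genes, 5 rose while HLA-F was at or under 3 counts in every library. The TAP1 promoter also carries such motifs and is not printed. Each sequence reads 5′ to 3′ on the gene's own strand, with every match on either strand to a motif searched in capitals, and overlapping matches forming a single capital run.
HLA-B (chr6:31357130-31357429, minus strand): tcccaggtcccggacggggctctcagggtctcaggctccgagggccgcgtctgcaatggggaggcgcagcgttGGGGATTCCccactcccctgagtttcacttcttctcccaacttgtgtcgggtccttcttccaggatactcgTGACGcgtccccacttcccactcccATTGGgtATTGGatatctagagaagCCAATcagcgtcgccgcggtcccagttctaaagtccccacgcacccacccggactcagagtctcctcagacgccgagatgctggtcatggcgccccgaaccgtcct
HLA-C (chr6:31272043-31272342, minus strand): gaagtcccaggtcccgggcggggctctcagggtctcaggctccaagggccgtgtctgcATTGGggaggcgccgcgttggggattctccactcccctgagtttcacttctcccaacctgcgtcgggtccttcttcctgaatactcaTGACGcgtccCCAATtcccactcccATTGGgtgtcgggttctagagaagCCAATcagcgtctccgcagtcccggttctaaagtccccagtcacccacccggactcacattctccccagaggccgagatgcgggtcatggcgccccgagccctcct
HLA-F (chr6:29723184-29723483, plus strand): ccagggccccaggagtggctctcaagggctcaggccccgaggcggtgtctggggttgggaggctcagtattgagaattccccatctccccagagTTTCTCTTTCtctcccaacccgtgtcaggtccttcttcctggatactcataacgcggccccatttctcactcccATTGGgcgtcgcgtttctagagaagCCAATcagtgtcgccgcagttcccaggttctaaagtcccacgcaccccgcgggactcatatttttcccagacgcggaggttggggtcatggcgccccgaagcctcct
B2M (chr15:44711267-44711566, plus strand): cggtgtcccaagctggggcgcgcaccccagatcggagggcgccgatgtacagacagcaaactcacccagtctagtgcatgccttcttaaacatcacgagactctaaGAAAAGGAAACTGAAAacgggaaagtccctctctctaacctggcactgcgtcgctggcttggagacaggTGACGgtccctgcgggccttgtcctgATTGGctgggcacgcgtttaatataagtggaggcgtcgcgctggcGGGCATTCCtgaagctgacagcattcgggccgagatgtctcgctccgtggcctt
TAP2 (chr6:32838690-32838989, minus strand): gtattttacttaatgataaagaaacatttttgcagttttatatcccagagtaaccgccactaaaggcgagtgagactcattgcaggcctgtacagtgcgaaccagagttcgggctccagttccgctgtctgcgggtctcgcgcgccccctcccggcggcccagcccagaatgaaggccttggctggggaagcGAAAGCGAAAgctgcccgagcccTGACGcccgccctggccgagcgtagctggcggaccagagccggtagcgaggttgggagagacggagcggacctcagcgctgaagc
TAPBP (chr6:33314029-33314328, minus strand): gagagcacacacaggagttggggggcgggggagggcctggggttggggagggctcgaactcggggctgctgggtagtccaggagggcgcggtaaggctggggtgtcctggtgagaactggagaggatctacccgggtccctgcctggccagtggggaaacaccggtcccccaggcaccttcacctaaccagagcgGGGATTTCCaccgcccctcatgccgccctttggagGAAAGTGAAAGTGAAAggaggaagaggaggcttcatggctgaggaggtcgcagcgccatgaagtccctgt
The motif searches covered the E-box CACGTG bound by MYC-MAX, the interferon-stimulated response element (TTTC, any 2 bases and TTTC), the Y box CCAAT bound by NF-Y, the X2 or CRE core TGACG bound by CREB/ATF proteins, the kappa B motif GGGNNTTCC and the gamma-activated site TTCNNNGAA. The E-box letters occurred in 0 of the 7 member promoters, and in 7.26% of all 35116 windows of the table. The letters searched for the interferon-stimulated response element were found in 5 of 7 (B2M, HLA-F, TAP1, TAP2 and TAPBP), against 3.57% of all windows. The Y box occurred in 5 of 7 (B2M, HLA-B, HLA-C, HLA-F and TAP1), a motif that 34.6% of all windows hold. The X2 or CRE core was present in 4 of 7 (B2M, HLA-B, HLA-C and TAP2), against 24.6%. The letters GGGNNTTCC, searched for kappa B, were in 3 of 7 (B2M, HLA-B and TAPBP), against 6.58%. No match to the gamma-activated site was seen in these 7 windows, against 7.66% of all windows, although an alternative start of TAP1 had 1. HLA-B and HLA-C share a layout in which TGACG begins 106 and 105 bases before the start. In both, a Y box on the other strand (ATTGG) begins 81 and 80 bases before the start. Also in both, CCAAT on the sense strand begins 56 bases before it. Their other Y boxes differ. HLA-B has a further ATTGG 74 bases before the start, and HLA-C has ATTGG 192 bases and CCAAT 95 bases before it. HLA-F has ATTGG 82 bases and its sense-strand CCAAT 57 bases before the start, and no TGACG match. A match is a string of letters and shows no binding. Variants of these letters were not searched, so a window without a match may still hold the element.

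Tested class I genes rose upon DOX treatment. In bulk RNA, a change in the number of cells that express a gene and a change in RNA per cell cannot be told apart. Of the 9 members, 7 passed the filter on low counts (above 1 CPM in at least 4 libraries), and all 7 of these were higher with DOX at an adjusted p below 0.05, with 0 lower. Changes were widespread in these cells, since 38.5% of the 15222 genes tested were higher by the same rule. At the stricter thresholds in the study's methods (FDR below 0.001 and an absolute log2 fold change, log2FC, above 2), 3 members were differentially expressed, HLA-B, HLA-C and TAP2, against 4.38% of tested genes that rose this far. The study's results text names a less strict FDR, under which the members would be the same 3, since the other 4 tested members had a log2FC of at most 1.31. TAP2 passed the filter through its DOX libraries alone, so it had to be higher with DOX to be tested. With no filter, 8 of the 9 were higher, against 21.3% of 36881 genes, and the exception was HLA-F. The same 8 had every DOX library above every untreated library, as did 20.8% of those genes, and 36.3% of the genes that passed the filter. The 9 genes are plotted by library below, in CPM.

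**Figure D1:**
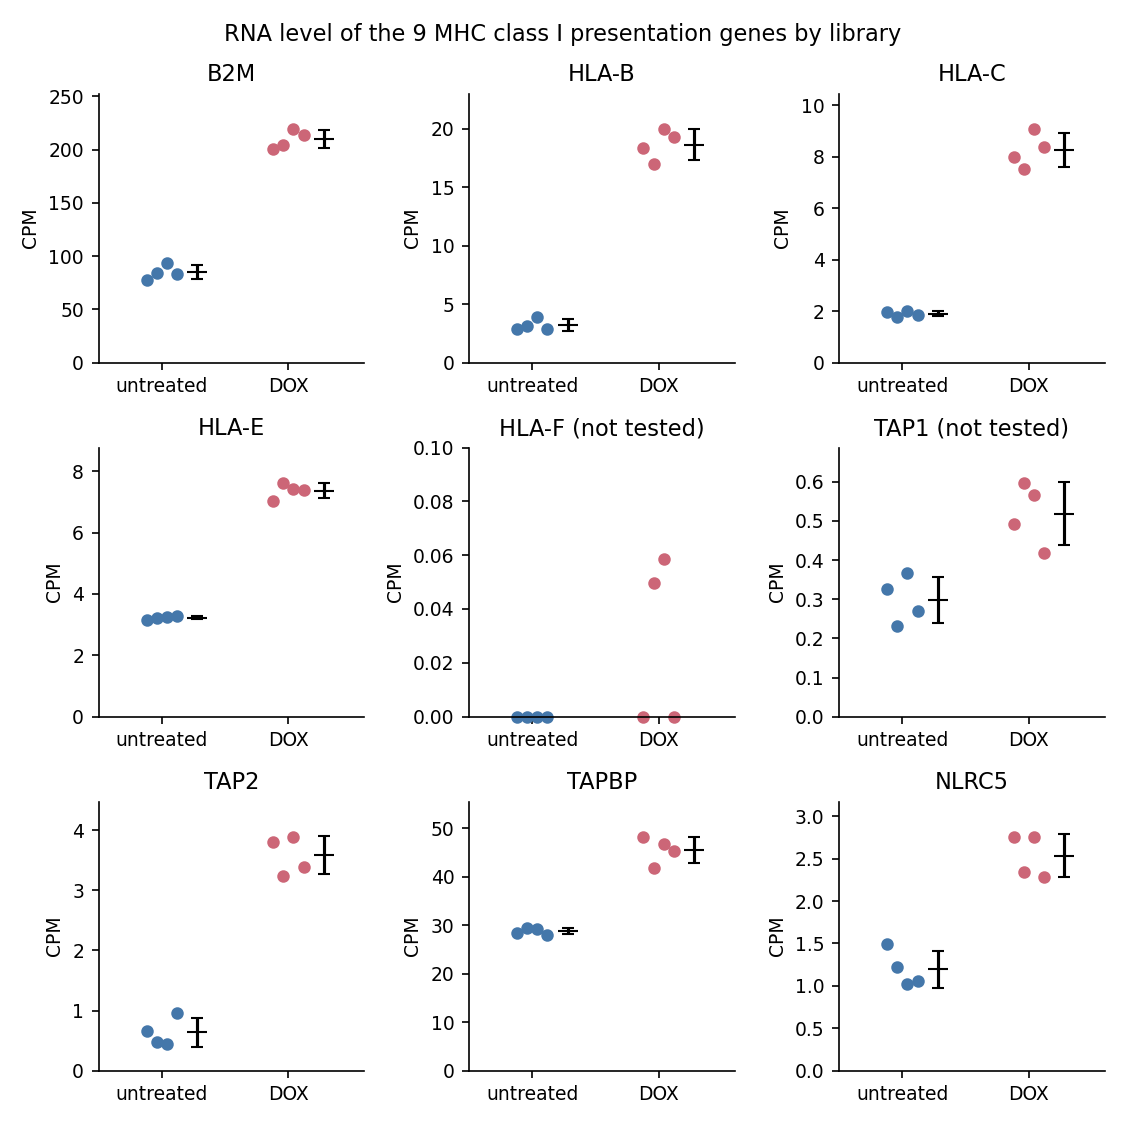
CPM of the 9 MHC class I presentation genes in each library, on linear axes that start at 0, with 1 point per library (blue, untreated; red, DOX) and, beside the points, the mean and SD of the 4 libraries, which are left out for HLA-F. The DOX points lie above all untreated points for 8 of the genes, while HLA-F has 0 counts in all untreated and in 2 DOX libraries.

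HLA-B (ENSG00000234745.11), a classical heavy chain whose gene spans 31269491 to 31357188 on the minus strand of chromosome 6 (GENCODE 29 on GRCh38, as for all coordinates of genes here), had with TAP2 the largest log2FC among the tested members. The order of the 2 turned when untreated replicate 1 or 4 was left out, with 2.49 and 2.50 for HLA-B and 2.51 and 2.75 for TAP2. Its level was 2.84, 3.096, 3.92 and 2.87 CPM in the untreated libraries and 18.4, 16.9, 20.0 and 19.2 CPM in the DOX libraries. The lowest DOX library was above the highest untreated library, untreated replicate 3. The means were 3.18 ± 0.508 and 18.6 ± 1.31 CPM (SD, n = 4 each), a 5.85-fold rise with a log2FC of 2.55 ± 0.10 (SE) and an adjusted p of 7.9e-10 by edgeR's quasi-likelihood test. HLA-C (ENSG00000204525.16, chromosome 6, 31268749 to 31272130, minus strand), also a classical heavy chain and the main ligand of inhibitory receptors on natural killer cells, stood at 1.96, 1.78, 1.99 and 1.86 CPM without DOX and at 7.98, 7.53, 9.09 and 8.39 CPM with it. The groups were far apart beside their spread, with means of 1.90 ± 0.0964 and 8.25 ± 0.663 CPM (SD, n = 4 each). The change was 4.35-fold, with a log2FC of 2.12 ± 0.09 (SE) and an adjusted p of 1.4e-09 by the same edgeR test. These heavy chains resemble each other in sequence, and their expected counts were not whole numbers in any of the 8 libraries, so reads were shared out between genes. The HLA-B gene model overlaps HLA-C by 2640 bases on the same strand.

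HLA-E (ENSG00000204592.9, chromosome 6, 30489467 to 30494205, plus strand) is a non-classical heavy chain that presents leader peptides of other class I chains to natural killer cells. The untreated libraries held 3.16, 3.21, 3.25 and 3.27 CPM and the DOX libraries 7.02, 7.63, 7.43 and 7.38 CPM. Its untreated values had the smallest relative spread of the 8 members above the floor, and the groups did not overlap. HLA-E rose 2.28-fold, by a log2FC of 1.19 ± 0.07 (SE) with an adjusted p of 2.7e-08 (edgeR). HLA-F (ENSG00000204642.14, chromosome 6, 29722775 to 29738528, plus strand), another non-classical chain, had 0 counts in the 4 untreated libraries and 0, 2, 3 and 0 counts in the DOX libraries. All 8 values were at or under the limit of 3 counts that a count of 0 allows, which is 0.0581 to 0.0748 CPM, so neither expression nor a change of HLA-F was detectable at this depth.

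B2M (ENSG00000166710.20) lies outside the MHC, on the plus strand of chromosome 15 from 44711487 to 44718877, and was the most abundant member. It measured 78.0, 84.4, 93.5 and 83.3 CPM in untreated and 200.7, 204, 219.6 and 214 CPM in DOX libraries. No untreated library came near the DOX range, and all B2M counts were whole numbers to the 2 decimals deposited, unlike those of HLA-B and HLA-C. The means of 84.8 ± 6.44 and 209.6 ± 8.61 CPM (SD, n = 4 each) gave a 2.47-fold rise, with a log2FC of 1.31 ± 0.06 (SE) and an adjusted p of 2.3e-09 (edgeR).

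The transporter subunits differed from each other. TAP2 (ENSG00000204267.15, chromosome 6, 32821833 to 32838780, minus strand) was at 0.653, 0.484, 0.447 and 0.964 CPM without DOX and at 3.81, 3.24, 3.89 and 3.39 CPM with it. The untreated values, from 22 to 43 counts, spread over a wide relative range, while the DOX values lay close together and well above them. TAP2 rose 5.67-fold, by a log2FC of 2.50 ± 0.19 (SE) with an adjusted p of 2.4e-07 (edgeR). A readthrough gene on the same strand, AL669918.1, covers the whole TAP2 gene and had a mean of 13.3 counts per library, so a division of reads between them is possible. TAP1 (ENSG00000168394.11, chromosome 6, 32845209 to 32853978, minus strand) stayed below 1 CPM in every library, at 0.326, 0.232, 0.366 and 0.269 CPM untreated and 0.493, 0.598, 0.567 and 0.418 CPM with DOX. These values rest on 12 to 18 and 19 to 28.8 counts, and the groups did not overlap. TAP1 was not part of the filtered test. Its exact permutation p was 0.0286, the smallest that 4 against 4 libraries allow, and the edgeR fit without a filter gave a log2FC of 0.76 ± 0.27 (SE) with an adjusted p of 0.0234. PSMB9 overlaps TAP1 over 8770 bases on the opposite strand, with a mean of 1.75 counts per library.

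Within each library, the ratio of TAP1 to TAP2 counts was 0.5, 0.476, 0.818 and 0.279 in untreated and 0.129, 0.185, 0.145 and 0.123 in DOX libraries. The balance of the heterodimer's messages thus moved towards TAP2, 3.36-fold, with no overlap. The mean log2 ratio changed by -1.75, with a two-sided exact permutation p of 0.0286. The adjusted p was 0.0286 over the 3 ratios that had no count of 0 in any library. Being taken within a library, the ratio of TAP1 to TAP2 does not depend on scaling between libraries. In untreated libraries it rests on 12 to 18 TAP1 and 22 to 43 TAP2 counts. Whether a division of reads between TAP2 and AL669918.1 affects it was not tested.

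TAPBP (ENSG00000231925.11, chromosome 6, 33299694 to 33314387, minus strand) encodes tapasin. It was measured at 28.4, 29.3, 29.3 and 28.04 CPM untreated and 48.2, 41.8, 46.7 and 45.3 CPM with DOX. All DOX libraries were higher, and the rise of 1.58-fold was the smallest of the 7 tested members (log2FC 0.66 ± 0.05, SE, adjusted p of 2.6e-07, edgeR). NLRC5 (ENSG00000140853.15, chromosome 16, 56989485 to 57083531, plus strand), the transactivator, was at 1.49, 1.22, 1.02 and 1.05 CPM untreated and 2.76, 2.34, 2.76 and 2.29 CPM with DOX. Its lowest DOX value was above its highest untreated value, with 47 to 73 counts against 94 to 141. NLRC5 rose 2.12-fold, by a log2FC of 1.09 ± 0.14 (SE) with an adjusted p of 2.4e-05 (edgeR).

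Divided by the length of the longest annotated coding transcript, levels can be compared between genes only roughly. Which transcripts the cells use was not determined. The values of HLA-B and HLA-C also depend on how reads were divided between genes. In untreated cells B2M led with 49.7 ± 3.77 CPM per kb (SD, n = 4), followed by TAPBP with 7.65 ± 0.172 and HLA-B with 2.06 ± 0.329 CPM per kb. HLA-E (1.24 ± 0.0186 CPM per kb) and HLA-C (1.22 ± 0.0620) came next and did not differ beyond their spread. NLRC5 (0.175 ± 0.0316 CPM per kb), TAP2 (0.112 ± 0.0414) and TAP1 (0.101 ± 0.0201) were the lowest of these, and the TAP genes lay within each other's spread. With DOX, B2M was at 123 ± 5.05 CPM per kb, and TAPBP (12.1 ± 0.732) and HLA-B (12.05 ± 0.848) lay within each other's spread. HLA-C (5.31 ± 0.427 CPM per kb) then stood above HLA-E (2.83 ± 0.0972), and TAP2 (0.630 ± 0.0555) above NLRC5 (0.372 ± 0.0376) and TAP1 (0.175 ± 0.0272).

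Set among all tested genes, the members' changes were in the upper part of a broad distribution whose median log2FC was 0.01. A larger log2FC was found for 3.17% of tested genes in the case of HLA-B, 3.22% for TAP2 and 4.03% for HLA-C. The corresponding share was 7.83% for B2M, 8.83% for HLA-E, 10.04% for NLRC5 and 17.3% for TAPBP. A log2FC above 1 with an adjusted p below 0.05 was reached by 11.0% of all tested genes, and by 6 of the 7 tested members. TAP2, counted among these 6, passed the filter through its DOX libraries alone and had to be higher to be tested.

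The summed counts of the member heavy chains were also higher with DOX. Their fold change must lie between those of HLA-B, HLA-C and HLA-E, which make up nearly all of the sum. A log2FC below that of HLA-B was thus fixed in advance. RSEM divides reads among near-identical genes, so the rows of HLA-B, HLA-C, HLA-E and HLA-F were summed before the fit, a sum that does not depend on how reads were divided among these 4 genes. Division of reads with further genes was not tested. The sum was 7.96, 8.09, 9.17 and 8.005 CPM in the untreated libraries and 33.4, 32.2, 36.6 and 35.0 CPM in the DOX libraries, with no overlap. Its log2FC was 2.05 ± 0.06 (SE), with an adjusted p of 9.8e-11 by edgeR's quasi-likelihood test.

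The makeup of this sum shifted. HLA-B supplied 38.1 ± 3.30% of it in untreated and 54.3 ± 1.09% in DOX libraries, and the share of HLA-E went from 39.0 ± 2.38% to 21.5 ± 1.505% (SD, n = 4 each). For both chains the groups did not overlap, with a two-sided exact permutation p of 0.0286 each, 0.0429 after adjustment over the 3 shares compared. The share of HLA-C was 22.9 ± 1.27% and 24.0 ± 0.603% (exact permutation p of 0.171, adjusted 0.171), so a change was not shown. Unlike the sum, the shares depend on how RSEM divided reads among these genes. They add up to a whole, so the rise of HLA-B and the fall of HLA-E are not independent results.

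**Figure D2:**
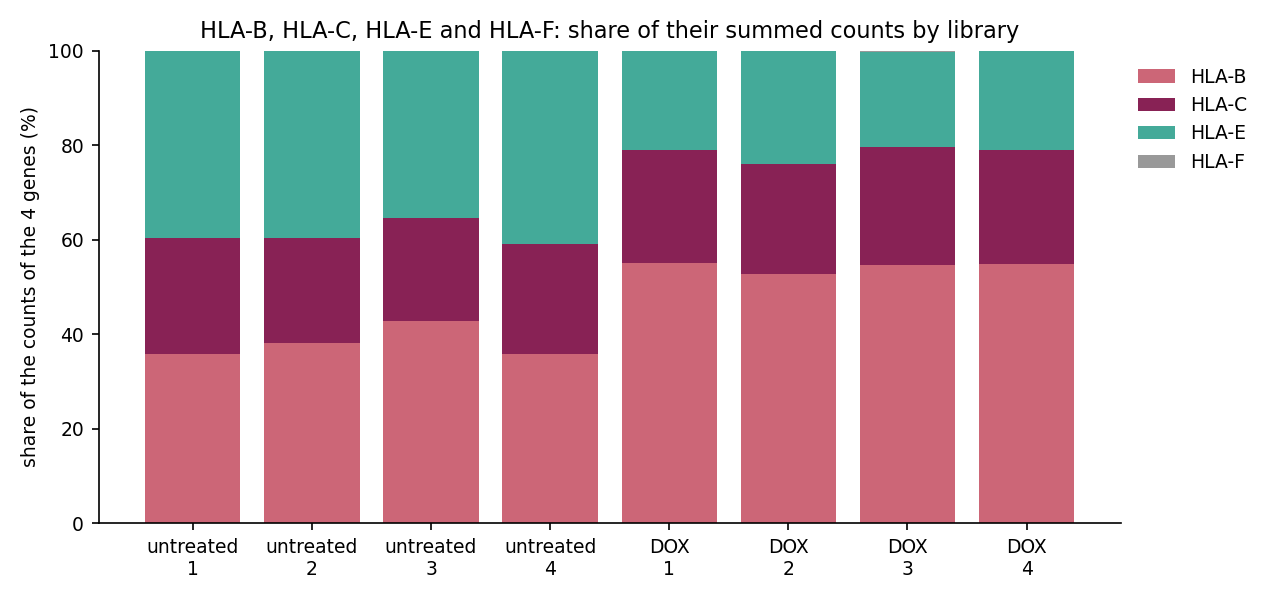
Stacked bars of the share (%) of the summed counts of HLA-B, HLA-C, HLA-E and HLA-F held by each gene in each of the 8 libraries. The HLA-B part ranges from 35.8 to 42.8% in untreated and from 52.7 to 55.0% in DOX libraries, and the HLA-E part is smaller in every DOX library, while HLA-F, at most 0.160%, is too small to see.

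The remaining genes of the pathway were described by lists of related genes, by their counts and median log2FC, to be read against the 38.5% of all tested genes that were higher and the 38.1% that were lower with DOX. Of 22 other class I and class I-like chains, 6 were tested and all 6 rose, with a median log2FC of 1.22, while 10 were at or under 3 counts in every library. ULBP1 rose from 1.70 ± 0.205 to 5.05 ± 0.349 CPM (SD, n = 4 each), by a log2FC of 1.57 ± 0.11 (SE), and is a ligand of the activating receptor NKG2D of natural killer and T cells. MR1, which presents vitamin metabolites to mucosal-associated invariant T cells, rose from 4.31 ± 0.351 to 12.8 ± 0.428 CPM, also by a log2FC of 1.57 ± 0.07 (SE). The other 4 were FCGRT, MICA, MICB and ULBP3.

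Of 21 genes of peptide loading and trimming, all tested, 4 were higher, 10 lower and 7 did not pass, with a median log2FC of -0.11. CALR (calreticulin), a chaperone of the loading complex, fell by 0.86 ± 0.06 on the log2 scale (SE), from 861 ± 61.2 to 475 ± 25.2 CPM (SD, n = 4 each). THOP1, a cytosolic peptidase that destroys antigenic peptides, fell by 0.91 ± 0.06. Among those that rose were SEC23A, a coat subunit of vesicles leaving the endoplasmic reticulum (log2FC 0.75 ± 0.06), and the aminopeptidase NPEPPS (0.62 ± 0.04). ERAP1 and ERAP2, the trimming peptidases of the endoplasmic reticulum, had log2FC of -0.01 and 0.05 and did not pass.

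Of 12 genes of the immunoproteasome and proteasome activators, 9 were tested, with 2 higher, 2 lower, 5 that did not pass and a median log2FC of 0.03. PSMB10, an inducible catalytic subunit, rose (log2FC 0.66 ± 0.14, SE) and its constitutive counterpart PSMB7 fell by 0.64 ± 0.07. Within libraries the ratio of PSMB10 to PSMB7 rose 2.48-fold, with an exact permutation p of 0.0286 (adjusted 0.0286). PSME4, an activator subunit, rose (0.41 ± 0.05) and PSMB6, a constitutive catalytic subunit, fell by 0.24 ± 0.08. PSMB8, the inducible counterpart of PSMB5, was too low to be tested, at 3, 2, 1 and 1 counts in untreated and 13, 8, 22 and 12 counts in DOX libraries. Its summed count relative to depth was 8.15 times as high with DOX, with a 95% counting interval of 3.70 to 21.2 that covers counting error alone. PSMB9, which overlaps TAP1, had 5 counts in the untreated and 9 in the DOX libraries in all, a ratio of 1.87 with an interval of 0.562 to 7.09, so no change was detectable at this depth. PSMB11, the catalytic subunit of the thymus, had at most 1 count in any library. PSME1, PSME2, PSME3, PSMB5 and POMP did not pass.

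Among 24 genes listed as regulators of class I transcription, 22 were tested, of which 8 were higher and 6 lower, with a median log2FC of 0.08. NFKB1, a subunit of NF-kappa B, rose 3.005-fold from 15.7 ± 0.391 to 47.1 ± 1.45 CPM (SD, n = 4 each), and IRF3 rose by a log2FC of 0.70 ± 0.06 (SE). IRF1, an interferon-induced activator that binds interferon-stimulated response elements, fell by 1.08 ± 0.09 on the log2 scale. Its levels were 6.73, 5.496, 6.42 and 5.87 CPM untreated and 2.98, 2.72, 3.05 and 2.80 CPM with DOX, and every DOX value was lower than every untreated value. EZH2, the methyltransferase of Polycomb repressive complex 2, fell by 1.07 ± 0.04.

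Of 19 genes of interferon receptors and JAK-STAT signalling, 15 were tested, 5 were higher, 4 lower and 6 did not pass, with a median log2FC of 0.10. JAK2, a kinase of the interferon gamma receptor, rose 3.85-fold from 2.49 ± 0.413 to 9.60 ± 0.799 CPM (SD, n = 4 each). IFNGR1, a chain of that receptor, fell by 0.63 ± 0.04 on the log2 scale (SE). SOCS1, a feedback inhibitor of JAK kinases, rose by a log2FC of 1.51 ± 0.18, and passed the filter through its DOX libraries alone. PIAS1, an inhibitor of JAK-STAT signalling, fell by 0.39 ± 0.06. IFNG and IFNB1 had at most 1 count in any library. IFNL1, a type III interferon, had 0 counts in every untreated library and 38, 22, 23 and 30 counts in the DOX libraries, which is at least 9.73-fold higher when the untreated group is set to 3 counts per library.

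Of 15 genes of class I turnover and degradation, 14 were tested, with 5 higher, 5 lower and a median log2FC of 0.02. RNF185, a ubiquitin ligase of the endoplasmic reticulum, rose by a log2FC of 1.25 ± 0.04 (SE) and the intramembrane protease SPPL3 by 0.63 ± 0.04. MARCHF9, a membrane-bound ubiquitin ligase that can lower surface class I, fell by 1.18 ± 0.06, and DERL2, a component of endoplasmic reticulum degradation, fell by 0.43 ± 0.05.

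**Figure D3:**
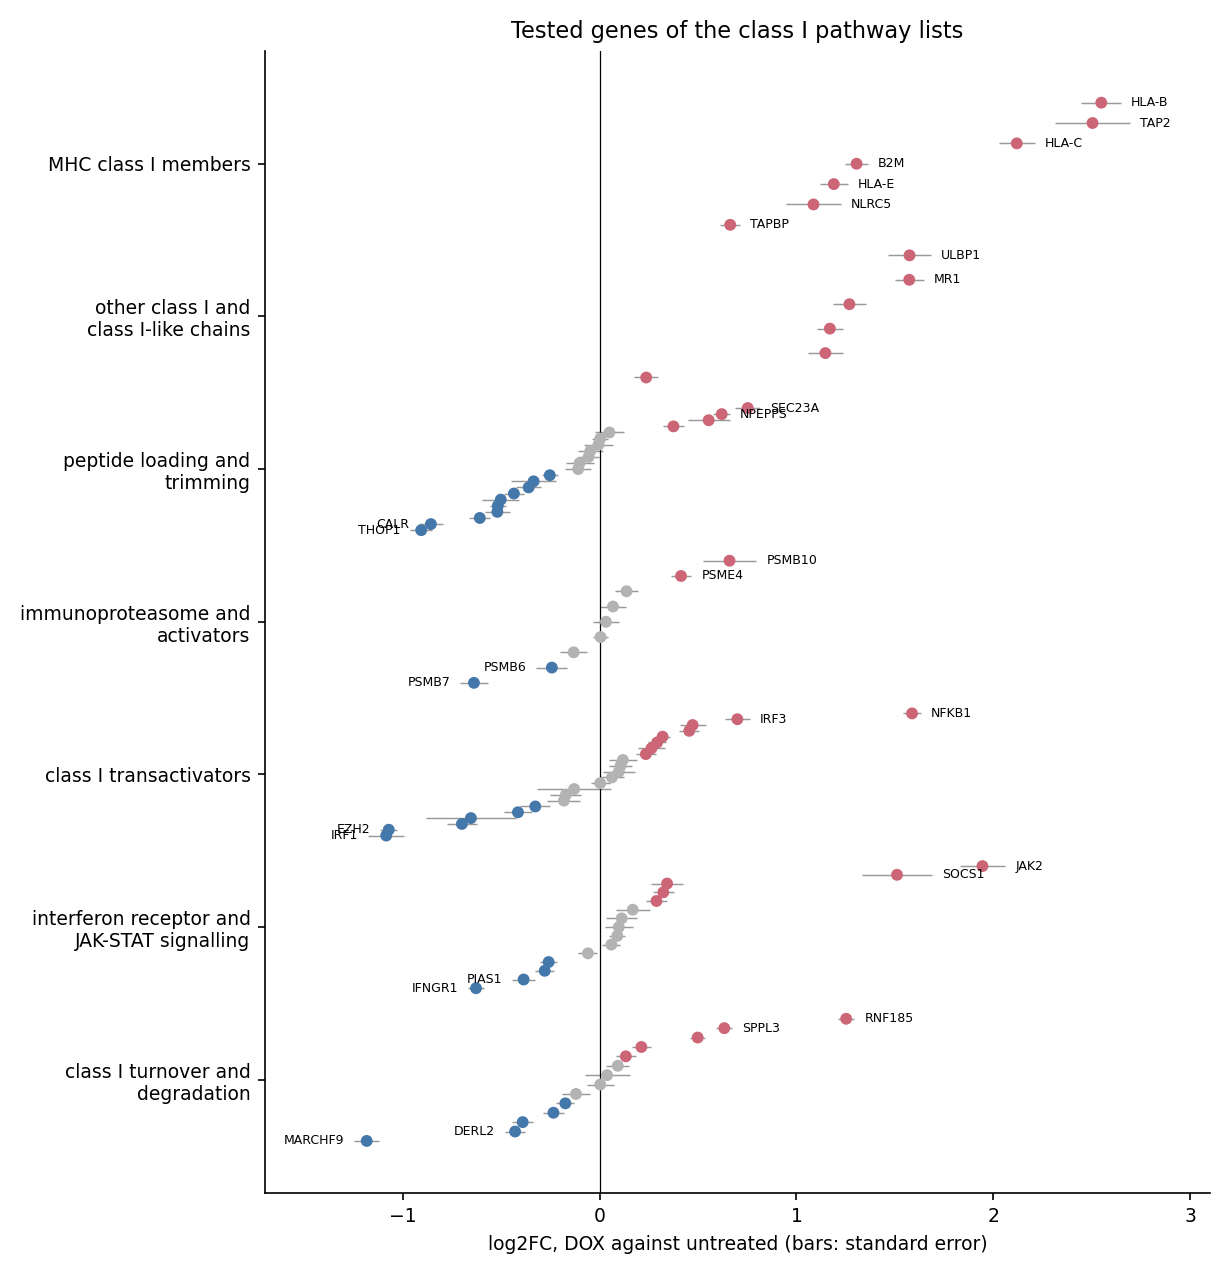
The log2FC of DOX against untreated with its SE for each tested gene of the members and of 6 related gene lists, coloured red where higher, blue where lower and grey where the adjusted p was not below 0.05. The tested class I chains lie to the right of 0. The loading, proteasome, regulator (labelled class I transactivators), interferon and turnover lists hold genes on both sides.

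Of the 9 members, 7 lie in the MHC on the short arm of chromosome 6, between 29722775 and 33314387. Over this stretch of 3591613 bp the tables listed 311 genes, of which 98 were tested and 93 were not members. Of those 93, 33 (35.5%) were higher and 37 (39.8%) lower with DOX, against 38.5% and 38.1% of all tested genes, and their median log2FC was -0.04. A log2FC above 1 with an adjusted p below 0.05 was reached by 7 of them (7.53%), a share below the 11.0% of all tested genes. Runs of neighbouring tested genes were seen after the values were known. HLA-C, HLA-B, MICA (log2FC 1.27) and MICB (1.17) follow each other, as do GPSM3 (2.71), TAP2 and HLA-DMA (1.87), while TCF19, TUBB and NRM in the same region fell by 1.96, 1.27 and 1.11.

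**Figure D4:**
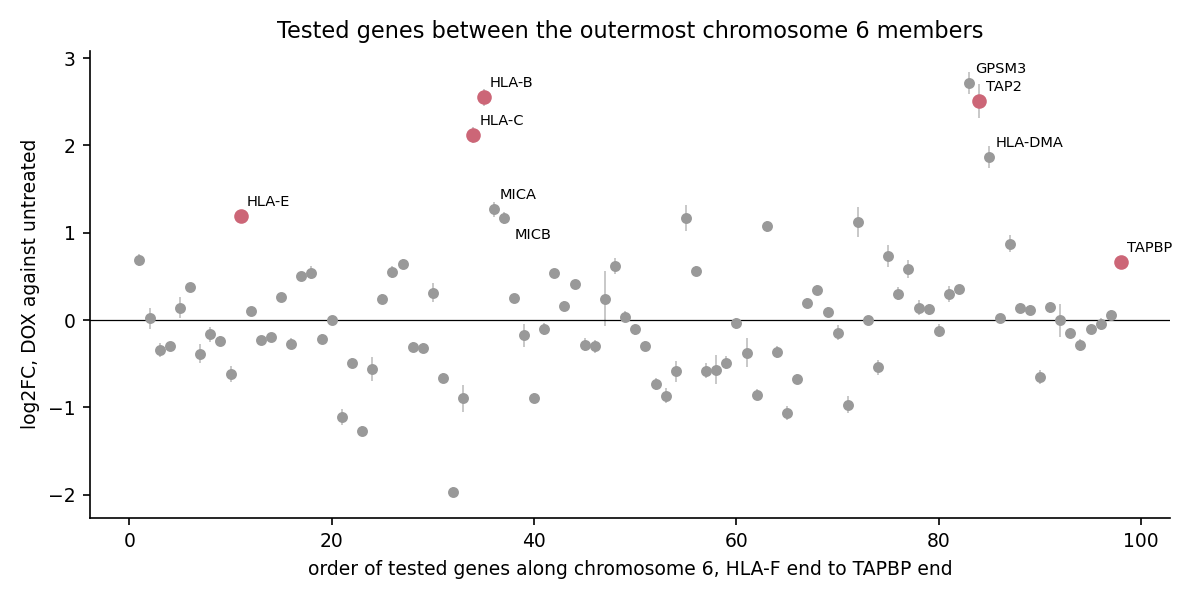
The log2FC of DOX against untreated with its SE for the 98 tested genes between the outermost chromosome 6 members, in their order along the chromosome, with members in red. The 5 tested members of this region sit above 0 among grey genes that lie on both sides, with a median of -0.04 for the 93 that are not members.

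The genes whose pattern was most like that of HLA-B, the member with the largest log2FC over all 8 libraries (TAP2 was within its error), were found by the root mean square difference of log2(CPM + 0.5), centred on each gene's mean, over the 8 libraries. GPSM3, a regulator of G-protein signalling encoded in the MHC, was the closest with 0.0706, followed by the adhesion molecule BCAM with 0.0777 and the calpain CAPN5 with 0.0886. GPSM3 went from 2.06 to 13.5 CPM, BCAM from 29.4 to 153 CPM and CAPN5 from 2.42 to 15.8 CPM on average. This likeness is dominated by the difference between the 2 groups.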

How the data were processed

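RNA-Seq of polyA+ RNA was analysed in 4 untreated and 4 DOX-treated libraries of D283-OMO cells, grouped by their labels. The authors used Trim Galore on paired reads of stranded libraries, STAR for alignment to GENCODE release 32, and deposited RSEM expected counts per gene, which are not normalized. Reads that match several genes, as among HLA genes, are divided by RSEM, and HLA reads were counted against reference alleles. Whether counting used strand is not given in the sources used here. Total counts, the limit of 3 counts and the intervals cover counting error only.

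Counts were rounded, kept where 4 or more of the 8 libraries exceeded 1 CPM and fitted with edgeR 4.0.16 in R 4.3.3 (TMM, quasi-likelihood test, no covariates, Benjamini-Hochberg adjustment over 15222 genes). The SE is the absolute log2FC over the square root of F. Library ratios and shares were compared by two-sided exact permutation tests, whose smallest p is 0.0286. On simulated data with 15222 genes, the fit found 99 of 100 planted changes of 1 in log2FC and made 17 false calls. Few genes were changed in the simulation, whereas 11661 passed an adjusted p of 0.05 in the data. It therefore does not show the error rate in these libraries.

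Gene coordinates come from GENCODE 29 (limited to identifiers it holds, 99.3% of tested genes) and promoters from RefSeq. The members and lists were chosen with earlier results of these data known. All members are named, as are the immunoproteasome genes, the 2 largest rises and falls of each other list, and the 3 genes most like HLA-B. Genes named beyond this rule (ERAP1, ERAP2, FCGRT, MICA, MICB, ULBP3, IFNG, IFNB1, IFNL1, the class II genes and the genes of the MHC stretch) were chosen after their values were seen. Some items are not reported here. Alternatives were DESeq2 1.42.0 (size factors and Wald test), library size only, the likelihood ratio test, other filters, a replicate block, summed rows of the 4 member heavy chains (added after seeing the data) and each replicate left out. Permutation tests and tables were made in Python 3.11.15 (scipy 1.17.1, pandas 2.3.3, numpy 2.4.6).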

Additional observations from a re-analysis of the deposited data

Results flagged for a closer look

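Among 30 groups of 4 libraries looked at, where chance alone would mark 1.5, 2 held a library far from the others. The summed CPM of HLA-B, HLA-C, HLA-E and HLA-F was 9.17 in untreated replicate 3, above the other untreated libraries at 7.96 to 8.09. The share of HLA-B in that sum was 52.7% in DOX replicate 2, below the other DOX libraries at 54.7 to 55.0%.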

How the results depend on the processing

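The 7 tested members kept their direction and stayed past the threshold in all 107 values computed under the alternatives. These include the same fit of the summed heavy chains, entered for HLA-B, for HLA-C and for HLA-E. That fit is left out of the ranges that follow and is no separate check of each chain. The range of the log2FC was 2.49 to 2.68 for HLA-B, 2.07 to 2.25 for HLA-C, 1.16 to 1.32 for HLA-E, 1.26 to 1.43 for B2M, 2.37 to 2.75 for TAP2, 0.63 to 0.79 for TAPBP and 1.01 to 1.21 for NLRC5. When over 1 CPM was asked of at least 5 libraries, TAP2 was not tested, because its untreated libraries were all below 1 CPM, and 6 members were higher and 2 differentially expressed. Library size only moved the median log2FC of all genes by 0.13. Summing the rows of the 4 member heavy chains, an alternative added after seeing the data, gave a log2FC of 2.05 in place of those of HLA-B, HLA-C and HLA-E. Leaving out each replicate in turn gave 7 members higher and 3 differentially expressed each time, 11159 to 12040 genes past the threshold, and a log2FC of 2.01 to 2.09 for that sum.

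Pairing of the samples by replicate number was not shown. Correlations of same-numbered deviations were 0.200, 0.182, 0.314 and -0.240, and 1 of 4 libraries correlated best with its own number. The mean was 0.114 for same numbers and -0.041 for other pairs. With so few pairs, this check cannot exclude a pairing. With the replicate block, 7 members were higher, 0 lower and 3 differentially expressed, 11805 genes passed and the log2FC of the summed heavy chains was 2.05. For PSME1 alone among the members and other genes named by the rule the block changed the call (0.14, adjusted p of 0.0388 by edgeR).

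Among 35 other named genes, 504 of 523 values kept their call, 10 newly passed, 3 no longer passed and 6 changed sign. All sign changes were of values near 0, for PSME3 (-0.023 without a filter, and -0.013, -0.0015, -0.0040 and -0.0021 without untreated replicates 2 and 4 and DOX replicates 3 and 4) and for POMP (-0.00072 without untreated replicate 2). Leaving out a replicate gave -0.013 to 0.022 for PSME3 and -0.00072 to 0.092 for POMP. PSMB6 no longer passed with library size only (-0.12), nor PDGFRA without DOX replicate 3 or 4 (0.49 and 0.46). The ratio of PSMB9 to PSMB6, with 0 counts in a library of each group, could be computed only with 0.5 added (change of 0.88, exact permutation p of 0.371). It was left out of the adjustment over the other 3 ratios. The depth limits TAP1, PSMB8, PSMB9 and HLA-F, each under 30 counts per library.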

Other observations

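MHC class II genes, which present peptides from outside the cell, were low. Of 14, 2 were tested and 6 were at or under 3 counts in every library, with HLA-DRA at 0 counts throughout. HLA-DMA, which helps load class II molecules, rose from 1.02 ± 0.161 to 3.74 ± 0.273 CPM (SD, n = 4 each), by a log2FC of 1.87 ± 0.13 (SE), and IFI30, a lysosomal thiol reductase, fell by 0.71 ± 0.10. HLA-DPA1 had 0 counts in all untreated and 28, 15, 41 and 18 counts in DOX libraries, at least 8.58-fold higher when the untreated group is set to 3 counts per library.

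Of 12 genes that mark medulloblastoma lines, 6 were tested, 1 was higher and 5 were lower. The photoreceptor factors NRL and CRX, active in Group 3 medulloblastoma, fell by 3.55 ± 0.09 and 2.59 ± 0.05 on the log2 scale (SE), and MYC had a log2FC of 0.26 ± 0.06, where reads from the MYC-derived transgene cannot be told apart. Of 8 fibroblast and endothelial markers, 4 were tested, 2 rose and 1 fell, and their summed level was 27.5 to 28.1 CPM in untreated and 24.8 to 30.5 CPM in DOX libraries. CDH5 (VE-cadherin), 1 of the 2 that rose, had 0 counts without DOX and 61 to 106 counts with it, at least 30.0-fold higher on the same limit, and passed the filter through its DOX libraries alone, so it had to be higher to be tested. VWF, an endothelial gene, fell by 1.39 ± 0.13, and PDGFRA had a log2FC of 0.54 ± 0.19. The part of these genes in the class I result was not tested.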
